A study of Mus musculus with 12 samples.

Results

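The genes described here are the 3 peroxisome proliferator-activated receptors (Pparg, Ppara and Ppard, which encode PPARγ, PPARα and PPARδ), the 3 retinoid X receptors (Rxra, Rxrb and Rxrg), the 2 liver X receptors (Nr1h3 for LXRα and Nr1h2 for LXRβ) and the 2 PGC1 coactivators (Ppargc1a and Ppargc1b). These 10 genes were chosen by symbol from the 55487 genes of a transcript table, and each symbol had 1 row. They were measured in mouse 3T3-L1 fibroblasts, which hormones can turn into adipocytes. One line carried a lentiviral scrambled hairpin (shScram), and the other carried one directed at Fto (shFto). Each line was sampled at 3 stages, as growth-arrested preadipocytes, at mitotic clonal expansion (the MCE stage) after induction with IBMX, dexamethasone and insulin, and, after further culture with insulin, at the differentiation stage. With 2 libraries in each of the 6 groups there were 12 libraries. Both lines went through puromycin selection and the same induction, and which of the hairpins against Fto the sequenced cells carried is not given in the sources used here. The labels do not say whether the 2 libraries of a group came from separate cultures, so p-values measure the spread between libraries, which may be technical.

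PPARs, RXRs and LXRs are nuclear receptors, transcription factors that are switched by small lipid-soluble ligands. PPARs and LXRs bind DNA as heterodimers with an RXR, so RXR is a subunit shared by both. PPARγ drives the formation of adipocytes, PPARα and PPARδ control genes of fatty acid oxidation, and LXRs respond to oxysterols and control cholesterol efflux and lipogenesis. PGC1α and PGC1β are coactivators that bind PPARs and other receptors and are known for raising mitochondrial biogenesis. The study asked how loss of Fto, an RNA demethylase, bears on adipocyte formation, and the comparison of the lines at each stage is used here for these factors.

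Values are TPM, a normalized level per transcript length, so TPM may be compared between genes, and the number of reads behind a value is unknown. Tests are on log2(TPM + 1), which understates changes of genes near 1 TPM, and a gene was said to change at an adjusted p under 0.05 in limma's moderated test over the 15968 genes that reached 1 TPM in at least 2 libraries. Of the 10 members 8 passed that filter, while Ppara and Rxrg did not. The hairpin was checked first. Fto stood between 52.7 and 73.5 TPM in the 6 shScram libraries and between 5.51 and 7.47 TPM in the 6 shFto libraries. The shFto level was 9.96%, 10.8% and 10.1% of the shScram mean in preadipocytes, in MCE and after differentiation. The mean difference on the log2 scale was -3.09, lower in 6 of 6 shFto libraries (exact permutation within stages, two-sided, p = 0.00926, the smallest that the 216 arrangements allow). The labels of 1 library disagree: replicate 1 of differentiated shScram cells is titled shScram but has a treatment field naming the knockdown. The title was followed, and Fto stood at 73.5 TPM in it.

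The 2 shScram preadipocyte libraries stood apart from each other. Their correlation over the genes tested was 0.939, against 0.990 to 0.993 in the other 5 groups, a description over genes of the same pair. Replicate 1 lay a median of 0.57 above replicate 2 on the log2 scale for transcripts under 40% GC and a median of 1.30 below it for transcripts of 60% GC or more. Of the members, Nr1h2 (60.6% GC) lay 2.40 lower in replicate 1, Rxrb (61.4% GC) 1.95 lower and Rxra (57.0% GC) 1.21 lower, whereas Ppargc1a (41.7% GC) lay 0.93 higher and Pparg (50.2% GC) 0.16 higher. In the other groups the largest gap between libraries of a tested member was 0.22 to 0.56. Because all libraries share an estimate of the spread, this pair also widened the errors of GC-rich members at the later stages. Results are therefore given from all 12 libraries and, where it matters, without replicate 1 of shScram preadipocytes or without both libraries of that group, the latter an alternative chosen after the values were seen.

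**Figure D1:**
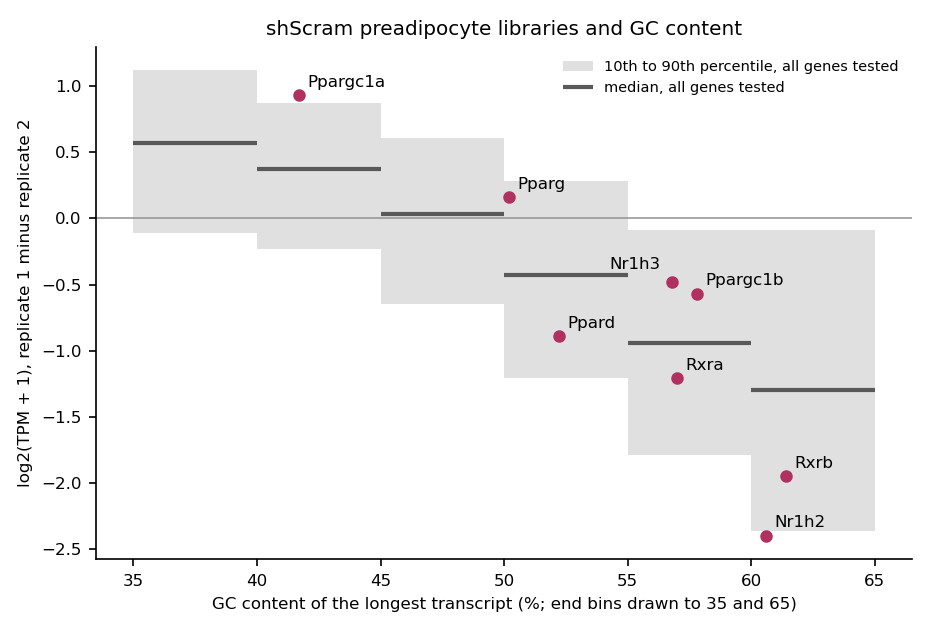
Difference in log2(TPM + 1) between replicate 1 and replicate 2 of shScram preadipocytes (vertical axis) against the GC content of the longest transcript in percent (horizontal axis), with the median and the 10th to 90th percentile of all genes tested in grey and the 8 tested members as points. The median runs from 0.57 in the bin of lowest GC to -1.30 in the highest, and Nr1h2 at -2.40 lies lowest of the members.

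In shFto cells Pparg was lower at both stages after induction, Rxra was lower at the MCE stage, and Nr1h3 was higher before induction and lower after it. For Ppard and Nr1h2 all 6 shFto libraries lay above all 6 shScram libraries. How many of all genes tested separated the lines in this way was not counted. At the MCE stage 3 of the 8 tested members changed (Pparg, Rxra and Nr1h3), where 17.8% of all genes tested did. All 3 were lower in shFto, a direction called in 7.26% of all genes, against 10.5% higher. At the differentiation stage 4 changed, where 21.2% of all genes did. Pparg, Nr1h3 and Ppargc1b were lower, as were 9.31% of all genes, and Ppard was higher, as were 11.9%. In preadipocytes 4 changed, where 28.2% of all genes did. Nr1h3, Nr1h2 and Ppard were higher in shFto, as were 15.9% of all genes, and Ppargc1a was lower, as were 12.3%. Without both shScram preadipocyte libraries 5 members changed at the MCE stage (Nr1h2 and Ppard were added) against 41.0% of all genes, and all 8 tested members changed at the differentiation stage against 45.7%. Without replicate 1 of shScram preadipocytes 4 changed in preadipocytes against 29.0% of all genes, with Rxra in place of Ppargc1a.

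From preadipocytes to the MCE stage of shScram cells 4 changed, against 39.1% of all genes. Pparg, Rxra and Nr1h3 rose, as did 12.2% of all genes, and Ppargc1a fell. Without replicate 1 of shScram preadipocytes 3 changed against 48.1% of all genes, with Nr1h3 lost (adjusted p = 0.0683). From the MCE to the differentiation stage of shScram cells Pparg, Nr1h3 and Ppargc1b changed, against 25.2% of all genes, and all 3 rose, as did 20.0%. In shFto cells Nr1h3 was the only tested member called at either step in the fit of all 12 libraries, against 28.7% of all genes at the first step and 26.7% at the second. Without both shScram preadipocyte libraries 6 members were called at each of the later steps, against 52.0% of all genes in shScram cells and 51.0% in shFto cells, and 6 at the first step in shFto cells against 51.1%. Each of these shares of members rests on 8 genes, and comparisons that use the same group share its libraries.

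**Figure D2:**
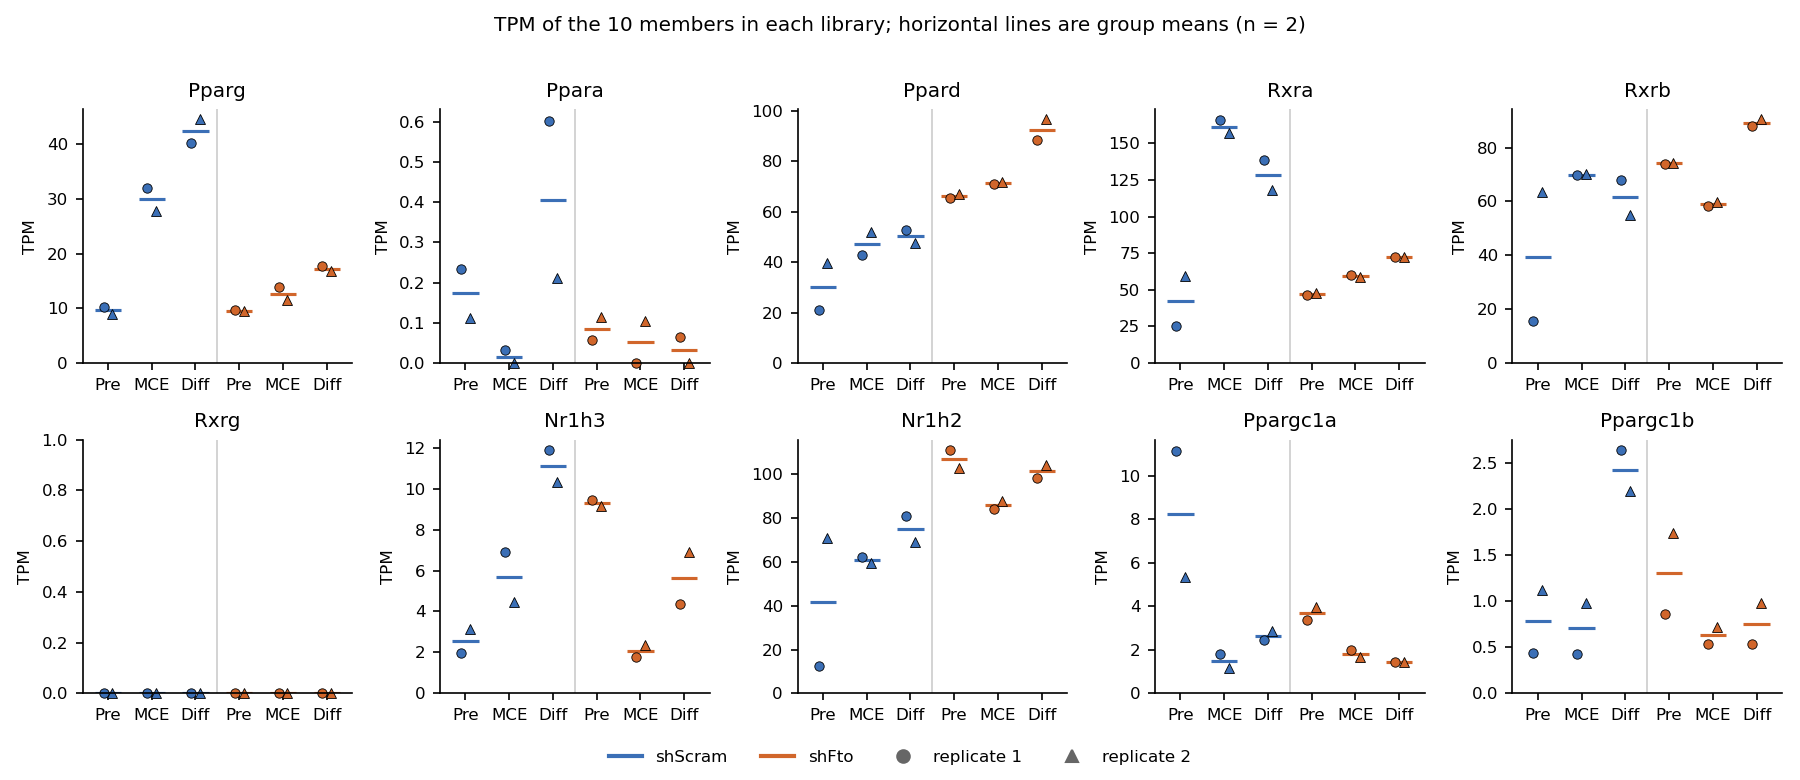
TPM of each of the 10 members (vertical axes, from 0) in the 12 libraries, by line and stage; circles are replicate 1, triangles replicate 2, and lines are group means (n = 2). At the differentiation stage Pparg reaches 40.3 and 44.6 TPM in shScram cells and 17.7 and 16.9 TPM in shFto cells, and Rxrg lies at 0 in every library.

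Pparg lies on chromosome 6 (GRCm38, chr6:115360951-115490399, plus strand). Its libraries overlapped between the lines before induction, and it was lower in shFto at both later stages. In shScram it stood at 10.3 and 9.06 TPM in preadipocytes, at 32.1 and 27.9 TPM in MCE and at 40.3 and 44.6 TPM after differentiation. In shFto it stood at 9.62 and 9.46 TPM, at 13.9 and 11.6 TPM and at 17.7 and 16.9 TPM. The lines overlapped as preadipocytes only, and every later shFto library lay below every later shScram library. In the order of group means, shFto and shScram preadipocytes were the only neighbours whose libraries overlapped.

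The difference of the lines in preadipocytes was -0.01 on the log2 scale (95% interval -0.33 to 0.30, adjusted p = 0.95). At the MCE stage the log2 fold change was -1.18 (SE 0.14, adjusted p = 0.000669), and at the differentiation stage it was -1.25 (SE 0.14, adjusted p = 0.000386). Both later calls were made under each of the 25 alternatives, with adjusted p from 2.17e-05 to 0.0112 and from 1.34e-05 to 0.00665. In shScram cells Pparg rose by a log2 value of 1.54 (SE 0.14, adjusted p = 7.28e-05) to the MCE stage and by a further 0.49 (SE 0.14, adjusted p = 0.033) to the differentiation stage. The second rise is the less certain, since its call was made in 13 of 25 alternatives, and its adjusted p was 0.294 at the highest. It was lost without either library of the shScram MCE stage, of shScram or shFto after differentiation or of shFto preadipocytes (adjusted p = 0.053 to 0.206). In shFto cells the same steps gave 0.38 (adjusted p = 0.0771) and 0.42 (adjusted p = 0.0551), neither past the threshold, and both were past it without the shScram preadipocyte libraries (adjusted p = 0.0171 and 0.0102). The step from the MCE to the differentiation stage did not differ detectably between the lines (difference -0.07, 95% interval -0.52 to 0.38, adjusted p = 0.935).

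The sequence before the start of transcript Pparg-201, which begins within the gene and downstream of the first promoter, is shown because C/EBP factors are known to act on Pparg during adipocyte formation. It is the RefSeq sequence on GRCm38.p6 of the 250 bases before that start, plus strand, at chr6:115421816-115422065, and no base of it lies in an annotated exon of Pparg. Capitals mark the C/EBP core TTGCNNAA read on either strand.
Pparg-201 upstream: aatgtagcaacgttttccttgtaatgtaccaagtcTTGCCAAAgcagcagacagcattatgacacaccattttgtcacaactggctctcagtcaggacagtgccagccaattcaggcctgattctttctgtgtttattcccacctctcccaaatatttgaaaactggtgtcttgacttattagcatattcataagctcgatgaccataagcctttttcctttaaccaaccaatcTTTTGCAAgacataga
It holds 2 such cores and has a GC content of 40.8%, against a median of 52.4% over all 32851 windows of this length. A C/EBP core was present in 9.56% of these windows. A match is a description of letters only, and the transcripts of the gene were not measured separately.

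Ppard (chr17:28232700-28301474, plus strand), the most widely expressed PPAR, was higher in shFto at all stages in the values themselves. In shScram it stood at 20.9 and 39.5 TPM, at 42.9 and 51.9 TPM and at 52.8 and 47.6 TPM over the 3 stages. In shFto it stood at 65.3 and 66.8 TPM, at 71.1 and 71.8 TPM and at 88.3 and 96.7 TPM. Each of the 6 shFto libraries lay above each of the 6 shScram libraries.

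The log2 fold change of Ppard was 1.17 in preadipocytes (SE 0.24, adjusted p = 0.0112), and 0.73 (adjusted p = 0.00153) without replicate 1 of shScram preadipocytes. This call was lost without replicate 1 or 2 of shFto preadipocytes (adjusted p = 0.0672 and 0.061). It was 0.59 at the MCE stage (SE 0.24, adjusted p = 0.141), which passed without both shScram preadipocyte libraries (adjusted p = 0.000733). It was 0.87 at the differentiation stage (SE 0.24, adjusted p = 0.0343), and 5.29e-05 was the adjusted p without those libraries. The call was lost without any 1 of the 10 libraries other than the shScram preadipocyte pair (adjusted p = 0.0512 to 0.172). From stage to stage Ppard was not called in either line at the settings used throughout. In shScram the first step gave 0.69 (adjusted p = 0.0504) and was called in 7 of 24 alternatives, among them both other scalings and the GC correction. It was 0.25 (adjusted p = 0.105) without replicate 1 of shScram preadipocytes. In shFto the second step gave 0.37 and passed without both shScram preadipocyte libraries (adjusted p = 0.00914).

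Ppara (chr15:85734983-85802819, plus strand), the PPAR of liver and other tissues that burn fat, was at or close to 0. Its highest value was 0.601 TPM, in replicate 1 of shScram at the differentiation stage, with 0.211 TPM in replicate 2. The remaining 10 libraries held 0 to 0.234 TPM, and 3 of the 12 listed it at 0. It was too low for the test.

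As a share of the summed TPM of the 3 PPARs, Pparg made up 42.7% and 34.95% in shScram at the MCE stage and 43.0% and 48.3% at the differentiation stage. In shFto it made up 16.3% and 13.9% in MCE, then 16.7% and 14.8% at the differentiation stage. In MCE the summed level was 75.0 and 79.7 TPM against 85.0 and 83.5 TPM, and after differentiation it was 93.6 and 92.4 TPM against 106 and 114 TPM. The shFto cells thus held at least as much PPAR transcript in sum after induction, and Ppard was the larger part of it. In preadipocytes the Pparg share was 32.7% and 18.6% in shScram and 12.8% and 12.4% in shFto, and the shScram pair differs there because Ppard differs between its libraries. These shares are a description, with no test.

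**Figure D3:**
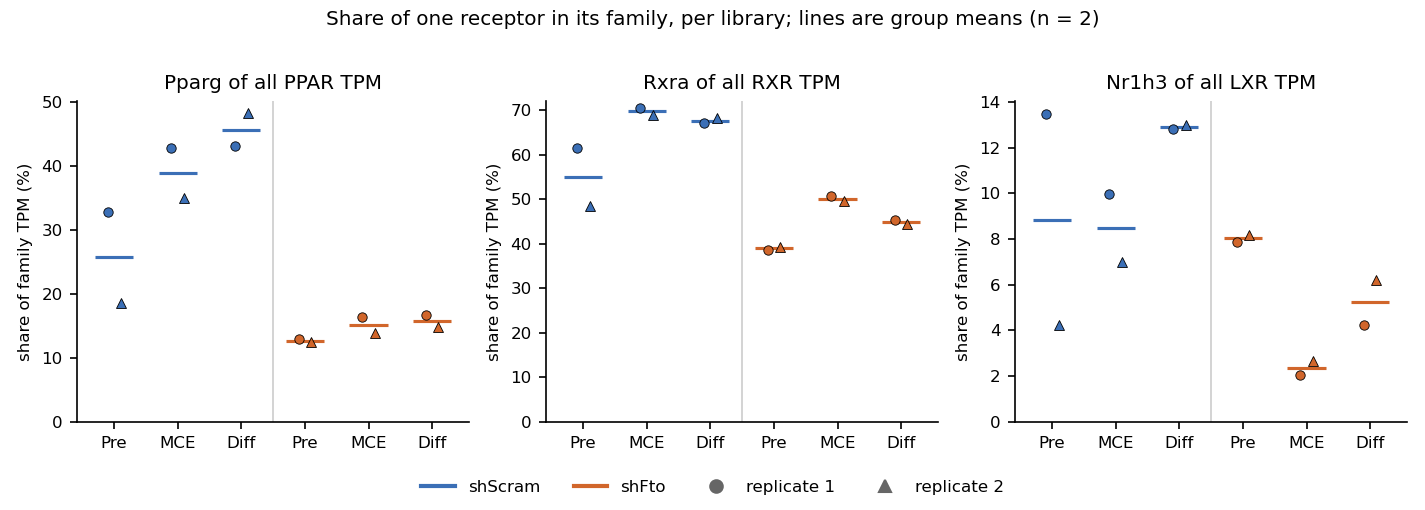
Share of Pparg in the 3 PPARs, of Rxra in the 3 RXRs and of Nr1h3 in the 2 LXRs, in percent of their summed TPM (vertical axes), per library by line and stage, with group means as lines (n = 2). The Pparg share lies between 34.95% and 48.3% in the 4 induced shScram libraries and between 13.9% and 16.7% in the 4 induced shFto libraries.

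Rxra (chr2:27676440-27762957, plus strand) encodes RXRα, the usual partner of PPARγ in adipocytes. It stood in shScram at 25.2 and 59.8 TPM in preadipocytes, at 166 and 157 TPM in MCE and at 138 and 118 TPM after differentiation. In shFto it stood at 46.7 and 48.2 TPM, at 59.9 and 58.8 TPM and at 72.8 and 72.2 TPM. Every induced shScram library lay above every shFto library, whereas the preadipocyte libraries of the lines overlapped.

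The log2 fold change between the lines was -1.43 at the MCE stage (SE 0.31, adjusted p = 0.0128), a call lost when any 1 of the 4 MCE libraries was left out (adjusted p = 0.0676 to 0.081) and without a filter on low values (adjusted p = 0.0903). It was -0.81 at the differentiation stage (SE 0.31, adjusted p = 0.0997). That difference did not pass with all 12 libraries and passed without both shScram preadipocyte libraries (SE 0.08, adjusted p = 2.52e-05). In preadipocytes the sign depended on the setting. It was 0.28 (adjusted p = 0.502) from all libraries, -0.33 (adjusted p = 0.0302) without replicate 1 of shScram and 0.89 (adjusted p = 2.35e-05) without replicate 2, and -0.26 with the GC correction. In shScram Rxra rose by a log2 value of 2.02 to the MCE stage (SE 0.31, adjusted p = 0.00124), and by 1.42 (adjusted p = 1.93e-06) without that replicate. The following change of -0.33 (adjusted p = 0.468) passed without both shScram preadipocyte libraries (adjusted p = 0.00598). In shFto the steps of 0.32 and 0.29 did not pass (adjusted p = 0.5 and 0.553), and passed without those libraries (adjusted p = 0.00725 and 0.0128).

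The sequences before 2 annotated starts of Rxra are shown because its transcripts begin in windows of unlike base composition and the table gives 1 value for the gene. They are RefSeq sequence on GRCm38.p6, plus strand, 250 bases each, at chr2:27676951-27677200 for Rxra-201 and chr2:27709042-27709291 for Rxra-202, with no base in an annotated exon of Rxra. Capitals mark the nuclear receptor half-site AGGTCA on either strand.
Rxra-201 upstream: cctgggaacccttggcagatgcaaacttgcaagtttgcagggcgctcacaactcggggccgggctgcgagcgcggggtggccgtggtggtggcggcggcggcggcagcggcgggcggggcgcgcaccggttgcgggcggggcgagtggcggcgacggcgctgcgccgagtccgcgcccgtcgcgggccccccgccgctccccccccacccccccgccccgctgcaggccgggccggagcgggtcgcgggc
Rxra-202 upstream: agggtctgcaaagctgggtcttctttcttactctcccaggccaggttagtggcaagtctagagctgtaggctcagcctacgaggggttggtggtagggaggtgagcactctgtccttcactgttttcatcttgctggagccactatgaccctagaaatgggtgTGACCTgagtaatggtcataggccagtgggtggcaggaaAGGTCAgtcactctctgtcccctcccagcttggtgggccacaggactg
The first window is 81.2% GC with 40 CpG dinucleotides, against a median of 6 over all windows, and holds 3 GC boxes (GGGCGG, either strand, present in 32.7% of windows) and no half-site. The second is 55.2% GC, holds 1 CpG and 2 half-sites, a motif present in 14.0% of all windows. The half-sites there do not form a DR1 (AGGTCANAGGTCA) or DR4 (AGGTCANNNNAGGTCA) repeat, the elements known for PPAR-RXR and LXR-RXR. Those letters were in 0.0335% and 0.0152% of all windows and in none of the windows of the members, which says only that they are not in these 250 bases.

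Rxrb (chr17:34031812-34038399, plus strand) encodes RXRβ, which is expressed in most tissues. It stood in shScram at 15.7 and 63.4 TPM, at 69.7 and 70.3 TPM and at 67.8 and 55.1 TPM over the stages, and in shFto at 74.0 and 74.4 TPM, at 58.3 and 59.6 TPM and at 88.1 and 90.4 TPM. Without the lowest library, replicate 1 of shScram preadipocytes, all values lay between 55.1 and 90.4 TPM. At the MCE stage both shFto libraries lay below shScram and at the differentiation stage both lay above it.

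With all 12 libraries no difference of Rxrb was called in limma's test, with log2 values of 1.20 (adjusted p = 0.0867), -0.24 (adjusted p = 0.797) and 0.54 (adjusted p = 0.479) between the lines by stage. In preadipocytes the value was 0.22 (adjusted p = 0.152) without replicate 1 of shScram and 2.17 (adjusted p = 1.06e-07) without replicate 2. Without both shScram preadipocyte libraries the difference at the differentiation stage passed (adjusted p = 0.000769), and so did the rise of 0.59 in shFto from the MCE to the differentiation stage (adjusted p = 0.000385). In that fit this step also differed between the lines for Rxrb (0.78, SE 0.13, adjusted p = 0.00276) and Rxra (0.62, SE 0.11, adjusted p = 0.00532), the 2 members so called against 17.2% of all genes.

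Rxrg (chr1:167598384-167639623, plus strand), an RXR of muscle and brain, was listed at 0 in all 12 libraries. Rxra and Rxrb therefore made up the RXR sum, which was 236 and 227 TPM in shScram against 118 and 118 TPM in shFto at the MCE stage. It was then 206 and 173 TPM against 161 and 163 TPM after differentiation. Rxra was 70.4% and 69.0% of that sum in shScram at the MCE stage and 67.1% and 68.2% at the differentiation stage. In shFto it was 50.7% and 49.6%, and then 45.2% and 44.4%. Hence the MCE-stage difference in the sum was mostly that of Rxra, and at the differentiation stage lower Rxra stood beside higher Rxrb values.

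Nr1h3 (chr2:91184061-91202834, minus strand) encodes LXRα, the LXR of liver, adipose tissue and macrophages. It was called higher in shFto before induction and lower after it. In shScram it stood at 1.98 and 3.14 TPM in preadipocytes, at 6.90 and 4.47 TPM in MCE and at 11.9 and 10.3 TPM after differentiation. In shFto it stood at 9.44 and 9.17 TPM, at 1.76 and 2.38 TPM and at 4.37 and 6.90 TPM. The shFto libraries lay above shScram before induction and below it at both later stages, with no overlap at any stage. The annotation has 2 further genes over Nr1h3, Gm13783 on its strand and Gm23390 on the other, and since a strand setting is not given, its reads may hold some of theirs.

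The log2 fold change of Nr1h3 was 1.55 in preadipocytes (SE 0.26, adjusted p = 0.00467), and 1.31 (adjusted p = 0.0059) without replicate 1 of shScram. It was -1.11 at the MCE stage (SE 0.26, adjusted p = 0.0196) and -0.89 at the differentiation stage (SE 0.26, adjusted p = 0.0405). The MCE call was lost without replicate 1 of shScram or replicate 1 or 2 of shFto at that stage (adjusted p = 0.139, 0.14 and 0.0636). The call after differentiation was made in 14 of 25 alternatives. It was lost without either differentiated shScram library, replicate 1 of differentiated shFto or any of the 4 libraries of shFto preadipocytes and MCE (adjusted p = 0.0603 to 0.249). In shScram Nr1h3 rose by 0.90 (adjusted p = 0.0241) and then by 0.88 (adjusted p = 0.0386), the second call made in 12 of 25 alternatives. The first was lost without replicate 1 of shScram preadipocytes (adjusted p = 0.0683) or of the shScram MCE stage (0.152). The second was lost without replicate 2 of the shScram MCE stage, either differentiated shScram library or any of those 4 shFto libraries (adjusted p = 0.0574 to 0.25). In shFto it fell by 1.75 on the log2 scale to the MCE stage (SE 0.26, adjusted p = 0.0012), a call made under each of the 25 alternatives. It then rose by 1.09 (SE 0.26, adjusted p = 0.0149), a call lost without replicate 1 of the shFto MCE stage or replicate 2 of differentiated shFto (adjusted p = 0.105 and 0.117). The second step did not differ detectably between the lines (0.21, 95% interval -0.62 to 1.05, adjusted p = 0.883).

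Nr1h2 (chr7:44549616-44553951, minus strand) encodes LXRβ, which is expressed widely. In shScram it stood at 12.7 and 71.0 TPM, at 62.3 and 59.5 TPM and at 80.7 and 69.1 TPM, and in shFto at 111 and 103 TPM, at 84.0 and 87.8 TPM and at 98.2 and 104 TPM. All 6 shFto libraries lay above all 6 shScram libraries. In preadipocytes the log2 fold change was 1.78 (SE 0.58, adjusted p = 0.0491), of which 0.58 (SE 0.10, adjusted p = 0.00263) was left without replicate 1 of shScram, and this call was made in 6 of 24 alternatives. It was lost without any 1 of the 10 libraries other than that shScram pair (adjusted p = 0.0741 to 0.181). At the later stages the differences of 0.49 and 0.43 did not pass (adjusted p = 0.644 and 0.661). Without both shScram preadipocyte libraries they passed with an SE of 0.08 (adjusted p = 0.00109 and 0.00207).

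Nr1h2 was the more abundant LXR in every library. Nr1h3 made up 9.96% and 6.99% of the LXR sum in shScram at the MCE stage and 12.8% and 13.0% at the differentiation stage. In shFto it made up 2.06% and 2.64%, and then 4.26% and 6.21%. The shFto libraries had the lower share at both stages.

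Ppargc1a (chr5:51454250-51567726, minus strand) encodes PGC1α, the coactivator that cold and fasting induce. In shScram it stood at 11.2 and 5.37 TPM in preadipocytes, at 1.82 and 1.18 TPM in MCE and at 2.44 and 2.86 TPM after differentiation. In shFto it stood at 3.37 and 3.99 TPM, at 1.98 and 1.69 TPM and at 1.43 and 1.45 TPM. The level was highest before induction in both lines, and at the MCE stage the shScram libraries lay on either side of one shFto library. Gm42614, Gm42615 and Gm43605 on its strand and Gm42613 on the other overlap the gene.

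The fall of Ppargc1a in shScram from preadipocytes to the MCE stage was 1.83 on the log2 scale (SE 0.28, adjusted p = 0.0013), and without replicate 1 the log2 fold change was -1.36 (adjusted p = 0.000663). In shFto the same step gave -0.72 (adjusted p = 0.0881), which passed without both shScram preadipocyte libraries (adjusted p = 0.00736). Between the lines the log2 fold change in preadipocytes was -0.92 (SE 0.28, adjusted p = 0.041), a call made in 6 of 23 alternatives and lost without replicate 1 of shScram (-0.45, adjusted p = 0.155). It was also lost without any 1 of the 10 libraries of the other groups (adjusted p = 0.0561 to 0.181). At the MCE stage it was 0.19 (95% interval -0.44 to 0.83, adjusted p = 0.718). It was -0.58 at the differentiation stage (adjusted p = 0.188), which passed without both shScram preadipocyte libraries (adjusted p = 0.0252).

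Ppargc1b (chr18:61298136-61400431, minus strand) encodes PGC1β, a related coactivator whose gene also holds the microRNA gene Mir378a on its strand and Gm25301 on the other. It was low throughout. In shScram it stood at 0.434 and 1.12 TPM, at 0.427 and 0.983 TPM and at 2.64 and 2.20 TPM, and in shFto at 0.860 and 1.74 TPM, at 0.537 and 0.720 TPM and at 0.536 and 0.976 TPM. The shScram libraries of the differentiation stage were above the other 10.

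Ppargc1b rose in shScram by 1.02 from the MCE to the differentiation stage (SE 0.28, adjusted p = 0.0282), and the lines differed by -0.97 on that scale after differentiation (SE 0.28, adjusted p = 0.0379). These calls were made in 17 and 15 of 24 alternatives. The first was lost without any 1 of its 4 libraries (adjusted p = 0.0549 to 0.156), and the second without any 1 of its 4 libraries or of the 2 shFto MCE libraries (adjusted p = 0.0615 to 0.202). The same step in shFto gave 0.10 (adjusted p = 0.839). The test of the difference between the lines in this step gave -0.92 (SE 0.39, adjusted p = 0.312). No tested member passed that test in limma (0 of 8, against 2.49% of all genes). At an unadjusted p under 0.05, 1 of the 8 members was past it, Ppargc1b, against 15.3% of all genes.

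**Figure D4:**
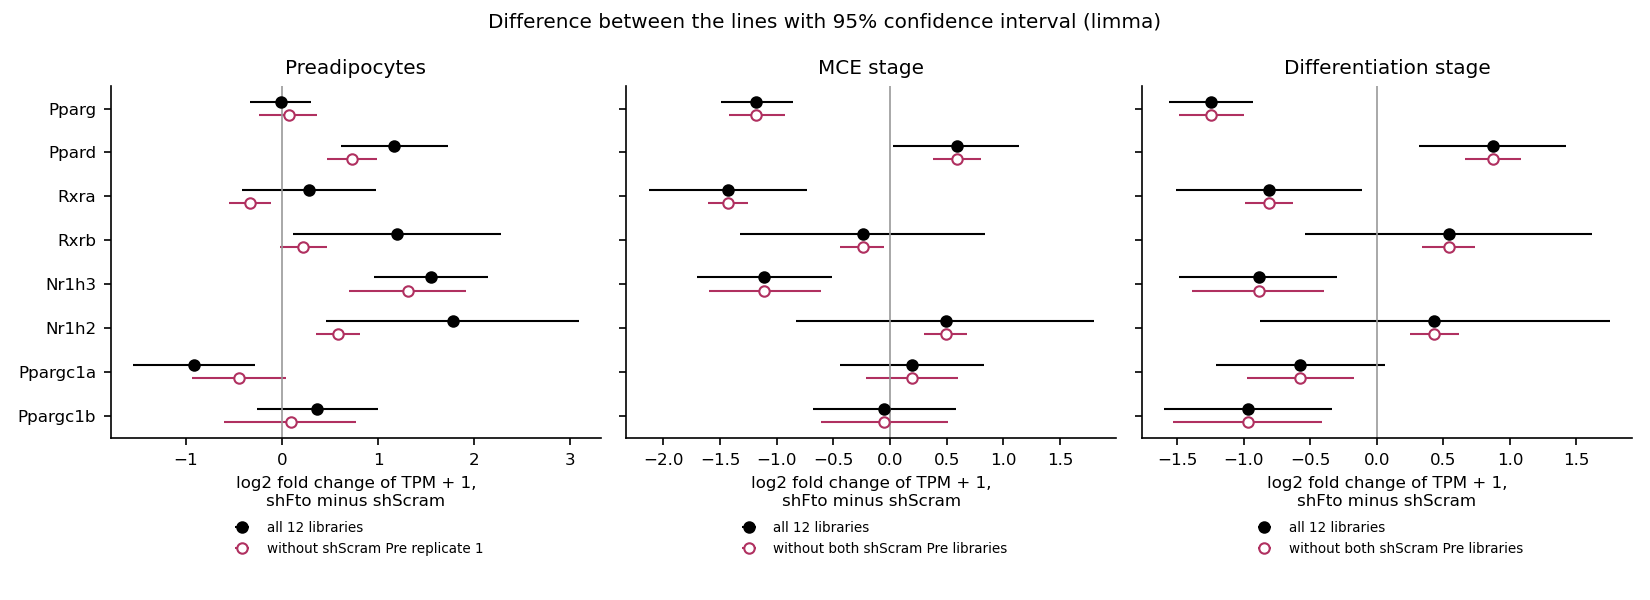
Difference in log2(TPM + 1), shFto minus shScram (horizontal axes), of the 8 tested members at each stage, with 95% confidence intervals from limma (n = 2 per group). Filled points use all 12 libraries and open points leave out replicate 1 of shScram preadipocytes or, at the later stages, both libraries of that group; the intervals of Pparg exclude 0 in MCE (-1.49 to -0.86) and after differentiation (-1.56 to -0.93) but not in preadipocytes.

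Since Pparg and Nr1h3 differed between the lines in another way before and after induction, the change in that difference from preadipocytes to the MCE stage was tested as well, a comparison chosen after the values were seen. It was -1.16 for Pparg (SE 0.20, adjusted p = 0.0142) and -2.66 for Nr1h3 (SE 0.37, adjusted p = 0.00527). These were the 2 of 8 members called, against 5.11% of all genes. Without replicate 1 of shScram preadipocytes they were -1.24 (adjusted p = 0.00147) and -2.42 (adjusted p = 0.00159), and Rxra joined them (-1.10, adjusted p = 0.000389), making 3 of 8 against 14.1% of all genes.

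Genes that these factors are known to control were taken from fixed lists, which leave out the members themselves and were written with earlier results of these data known. Of the 19 genes listed as PPARγ targets of adipocytes 17 were tested. At the MCE stage 10 were lower and 1 was higher in shFto, with a median log2 fold change of -0.70 against 0.05 over all genes. At the differentiation stage 15 were lower and none was higher, with a median of -1.62 against 0.03 over all genes. Without both shScram preadipocyte libraries 12 of the 17 were called lower and 3 higher in MCE, against 41.0% of all genes called in either direction. In that fit 15 were called lower and 1 higher after differentiation, against 45.7% of all genes. In shScram 11 of the 17 rose from the MCE to the differentiation stage, with a median of 1.31 against 0.23. The test of the difference between the lines in this step called 7, all lower in shFto, a direction called in 1.01% of all genes, with a median of -1.12 against -0.05. Without both shScram preadipocyte libraries that test called 10 lower and 2 higher, against 17.2% of all genes called in either direction.

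Cd36, a fatty acid transporter, stood at 13.0 and 12.8 TPM in shScram against 1.65 and 1.11 TPM in shFto at the MCE stage. It then stood at 148 and 151 TPM against 2.71 and 1.24 TPM, and the log2 fold changes were -2.56 (adjusted p = 0.000143) and -5.71 (adjusted p = 1.34e-06). The lines differed more at the later stage in the values, and in both the groups did not overlap. Pnpla2, a triglyceride lipase, and Plin4, a lipid droplet coat protein, were also lower at the MCE stage (-2.31 and -2.24, adjusted p = 0.000125 and 0.000648). At the differentiation stage Cidec, another lipid droplet protein, had a log2 fold change of -4.12 (adjusted p = 1.68e-06). Adipoq, which encodes the hormone adiponectin, stood at 77.2 and 72.4 TPM in shScram against 6.05 and 3.66 TPM in shFto (log2 fold change -3.72, adjusted p = 5.28e-06). Lpl and Dgat2, named after their values were seen, were not called lower after differentiation. Lpl, a lipoprotein lipase, was higher in shFto at the MCE stage (1.22, adjusted p = 0.00324). It stood at -0.21 (adjusted p = 0.515) at the differentiation stage. Dgat2, an enzyme of triglyceride synthesis, was called at neither (0.89 and 0.39, adjusted p = 0.124 and 0.489). Other targets, also named after their values were seen, were higher in shFto by value at the MCE stage. Angptl4 stood at 92.95 and 92.7 TPM against 66.8 and 62.8 TPM in shScram. Adipoq stood there at 0.984 and 1.25 TPM against 0.817 and 0.791 TPM.

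**Figure D5:**
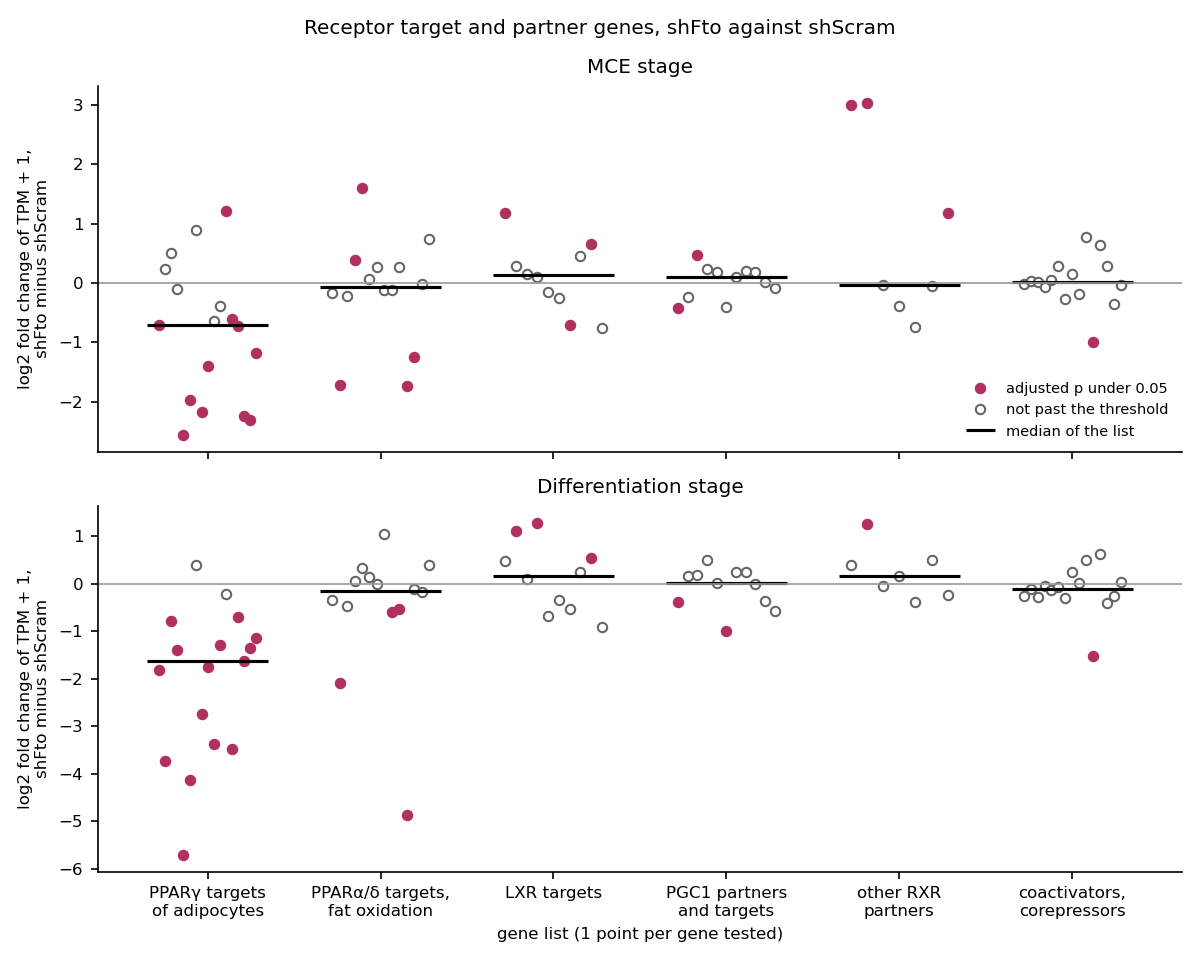
Log2 fold change of TPM + 1, shFto minus shScram (vertical axes), of the tested genes of 6 lists at the MCE stage (top) and the differentiation stage (bottom), 1 point per gene, filled where the adjusted p was under 0.05, with the list's median as a line. The median of the PPARγ targets lies at -0.70 and -1.62, and the medians of the other 5 lists lie between -0.14 and 0.17.

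Of 14 tested genes of fatty acid oxidation, 3 were lower and 2 higher at the MCE stage (median -0.07), against 17.8% of all genes called. At the differentiation stage 4 were lower and none higher (median -0.14), against 21.2%. Without both shScram preadipocyte libraries 3 were lower and 5 higher at the MCE stage, against 41.0% of all genes. In that fit 6 were lower and 3 higher at the differentiation stage, against 45.7%. Acadm, a dehydrogenase of medium-chain fatty acids, was lower at both stages (-1.71 and -2.08, adjusted p = 0.000125 and 3.24e-05). Hadha, of the trifunctional protein, was lower at the differentiation stage (-0.60, adjusted p = 0.00308). Cpt1a, which brings fatty acids into mitochondria, was higher at the MCE stage (1.60, adjusted p = 2.75e-05).

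Of 10 tested LXR targets, 2 were higher and 1 lower at the MCE stage (median 0.13), and 3 were higher and none lower at the differentiation stage (median 0.17). Abca1, the cholesterol efflux pump, stood at 22.5 and 23.1 TPM in shScram against 55.3 and 50.9 TPM in shFto at the MCE stage (log2 fold change 1.18, adjusted p = 0.000967). Mylip, which directs the LDL receptor to breakdown, was lower there (-0.71, adjusted p = 0.0364). At the differentiation stage Apoe, an apolipoprotein, and Abcg1, another efflux pump, were higher (1.29 and 1.11, adjusted p = 0.0229 and 0.00106). Scd1, a fatty acid desaturase, was higher at both stages (0.66 and 0.54, adjusted p = 0.00412 and 0.00896). In preadipocytes, where Nr1h3 and Nr1h2 values were higher, Apoe, Abcg1 and Abca1 were higher (1.87, 1.32 and 0.87, adjusted p = 0.00545, 0.000778 and 0.00522). Scd1, named after its value was seen, was lower there (-0.68, adjusted p = 0.00419). With all 12 libraries 3 of the 10 targets were called higher in preadipocytes and 1 lower, against 28.2% of all genes called. Whether the targets followed the receptors was not tested. The list median in preadipocytes was 0.55 against 0.08 over all genes. Without replicate 1 of shScram preadipocytes that median was 0.18 against 0.0 over all genes. After differentiation, where Nr1h3 was lower, Nr1h2 values were higher. The LXR sum there was 92.6 and 79.4 TPM in shScram against 103 and 111 TPM in shFto. At that stage 4 of the 10 targets were higher and 4 lower without both shScram preadipocyte libraries, against 45.7% of all genes called. In that fit 3 were higher and 3 lower at the MCE stage, against 41.0%.

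Of 11 tested PGC1 partners and targets, Cycs (cytochrome c) was higher at the MCE stage (0.48, adjusted p = 0.0396) and Cox4i1, a subunit of cytochrome oxidase, was lower at both stages (-0.42 and -0.39, adjusted p = 0.0371 and 0.0425). Idh3a, of the citrate cycle, was lower at the differentiation stage (-1.0, adjusted p = 0.00111). Without both shScram preadipocyte libraries 1 of the 11 was higher and 2 lower in MCE, and 1 higher and 4 lower after differentiation. In that fit 3 of 7 tested RXR partner receptors were higher and 2 lower at each of these stages. Of all genes 41.0% and 45.7% were called there. With all 12 libraries 3 of the 7 receptors were higher and none lower at the MCE stage, against 17.8% of all genes called. Nr4a2 and Nr4a1, orphan receptors that are early response genes, stood at 26.2 and 30.0 TPM and at 295 and 310 TPM in shFto, against 3.09 and 2.05 TPM and 35.8 and 38.0 TPM in shScram (log2 fold changes 3.04 and 3.00, adjusted p = 2.21e-05 and 6.83e-05). Vdr, the vitamin D receptor, was higher there too (1.18, adjusted p = 0.00196), and Nr4a2 was higher also at the differentiation stage (1.26, adjusted p = 0.00168). Of 15 coactivators and corepressors Nrip1, which binds ligand-bound receptors, was the 1 called at each stage in the fit of all libraries, lower in shFto (-1.0 and -1.52, adjusted p = 0.00866 and 0.000859). Without both shScram preadipocyte libraries 3 of the 15 were higher and 2 lower in MCE, and 2 higher and 4 lower after differentiation.

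The summed adipocyte markers were lower in shFto after induction, as Pparg was. Before induction their sum was higher in shFto, and most of it was Lpl (mean 143 TPM in shScram against 264 TPM in shFto). Of 8 markers 7 reached 1 TPM in some library, with Lep at or near 0. Their summed level in shScram was 121 to 182 TPM in preadipocytes, 339 to 343 TPM in MCE and 1471 to 1484 TPM after differentiation, against 256 to 288 TPM, 249 to 260 TPM and 396 to 434 TPM in shFto. Of these markers, 6 are also in the list of PPARγ targets above. In such bulk RNA, fewer cells that became adipocytes and less RNA per cell cannot be told apart. All 8 fibroblast markers reached 1 TPM. Their sum was 4926 to 8972 TPM in shScram and 7648 to 7724 TPM in shFto preadipocytes. In MCE it was 3644 to 4034 TPM against 5341 to 5826 TPM. After differentiation it was 6677 to 7049 TPM against 9102 to 9525 TPM. The sum after induction was thus higher in shFto, where the adipocyte sum was lower. Much of the difference was Col3a1, at a mean of 803 TPM in shScram against 2781 TPM in shFto in MCE. It stood at 1838 against 3746 TPM after differentiation. The markers did not all go that way. By group mean Col1a2 was lower in shFto in MCE (929 against 1126 TPM) and after differentiation (2254 against 2558 TPM). Dlk1 was lower in MCE (458 against 1144 TPM), and the remaining markers were higher at both stages. Of 4 macrophage markers 2 reached 1 TPM and Adgre1 was 0 in all libraries, with a sum of 3.81 to 13.0 TPM in shScram and 19.3 to 48.8 TPM in shFto, most of it Cd14. Of 4 muscle markers Des alone reached 1 TPM and Myod1 was 0 in all libraries, with a sum of 3.28 to 7.995 TPM in shScram and 6.32 to 13.3 TPM in shFto. The part of these genes in the differences between the lines was not tested. No endothelial or hepatocyte marker reached 1 TPM.

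The genes whose profile over the 12 libraries was most like that of a member were found by the root mean square difference of the log2 profiles, each minus its own mean, among all genes tested. For Pparg they were Il1r2 (0.13), Pik3r1 (0.16) and Lifr (0.18). For Rxra they were Tob2 (0.20), Noc4l (0.21) and Fam53b (0.23), and for Ppard Hyou1, Kdm6b and Slc39a1 (each 0.15). The nearest profiles to Nr1h3 lay farther off, with Hoxd3 and Agpat3 (each 0.30) and Bcl2l1 (0.32). For Nr1h2 they were Samd1, Plppr2 (each 0.13) and Itm2c (0.15), and for Rxrb Zxda (0.14), Ccs and Src (each 0.16). For Ppargc1a they were Gtf2h1 (0.12), Gm30873 (0.13) and Fam13b (0.15), and for Ppargc1b Det1 (0.18), Rnf24 and Gm47662 (each 0.22). The 12 libraries are not independent of stage and line, and for Nr1h2, Rxrb and Ppargc1a the distance of replicate 1 of shScram preadipocytes from its pair is part of the profile.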

How the data were processed

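RNA of 12 libraries was sequenced. The paper's methods describe fragmented total RNA, with fragments of 40 to 60 nt selected on a gel, for input and immunoprecipitated libraries. Those methods name cells treated with rhein and do not name the hairpin lines, so the selection is uncertain for these libraries. Per the labels and the methods the authors used Trim Galore 0.6.5 for trimming, HISAT2 2.1.0 for alignment to GRCm38, and StringTie 2.1.4 with Ensembl release 102 for the deposited TPM of each gene. The authors tested counts with DESeq2 1.30.1. That test was not repeated, as no counts were analysed here. Depth is unknown from TPM, and 20853 to 24018 genes were above 0 per library. A strand setting is not given in the sources used here. Selecting short fragments, where it was done, and amplifying them by PCR can change levels with base composition, which was not tested here.

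Groups were taken from the titles. From the deposited TPM, log2(TPM + 1) was tested for genes that reached 1 TPM in at least 2 libraries. R 4.3.3 and limma 3.58.1 were used, with 1 mean per group over 12 libraries (6 residual degrees of freedom) and eBayes with trend. Tests were two-sided, and p-values were adjusted by Benjamini-Hochberg over all 15968 genes. Tables were made with Python 3.11.15, numpy 2.4.6, pandas 2.3.3 and scipy 1.17.1, and figures with matplotlib 3.10.9. Coordinates and overlaps came from GENCODE release M21 on GRCm38, which held 99.4% of the gene identifiers, and promoter windows from RefSeq on GRCm38.p6. All members were named. From a list, the 3 called genes with the largest change were named per stage at most, other names being given as chosen after their values were seen, and the 3 most alike genes of each member whose group means span 1 or more on the log2 scale. The members and lists were chosen with earlier results of these data known. The alternatives were another pseudocount, other filters, scaling between libraries, a GC correction, the replicate number as a block, which libraries entered the fit, how the spread was estimated, the call rule and each library left out. The test was checked on simulated data. Immunoprecipitated RNA and cells given rhein were not analysed here. A gene that the naming rule picks is not reported here.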

Additional observations from a re-analysis of the deposited data

Results flagged for a closer look

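The difference between the lines changed from preadipocytes to the MCE stage for Pparg (-1.16 on the log2 scale, SE 0.20, adjusted p = 0.0142 in limma) and for Nr1h3 (-2.66, SE 0.37, adjusted p = 0.00527). Both are interaction terms of line and stage, chosen after the values were seen. For Nr1h3 the call was made in 24 of 24 alternatives, with an adjusted p of up to 0.0366. For Pparg it was made in 19 of 24, with an adjusted p of up to 0.0819. It was lost with only the 8 libraries of the contrast in the fit and without replicate 1 of shScram at the MCE stage, replicate 1 or 2 of shFto preadipocytes or replicate 2 of shFto at the MCE stage. With 2 libraries per group no library could be tested as standing apart from its group.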

How the results depend on the processing

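Over 25 alternatives the 8 tested members gave 1758 single values, of which 1477 kept direction and side of the threshold, 132 lost the call, 118 gained it and 31 changed sign, none of these among the 22 values called of 72. The number of members changed by the knockdown in preadipocytes (4) was 2 with a pseudocount of 0.1, 1 with no filter, 2 with the GC correction and 0 with the compared libraries alone, and 1 to 6 without single libraries. At the MCE stage (3) it was 1 with no filter, 6 with only those libraries, 5 without both shScram preadipocyte libraries and 1 to 5 without single libraries. At the differentiation stage (4) it was 2 with a pseudocount of 0.1, 1 with no filter, 1 with a fold change over 2 and unadjusted p under 0.05, 8 with only those libraries, 8 without both shScram preadipocyte libraries and 1 to 8 without single libraries. In shScram, the first step (4) gave 0 with the compared libraries alone and 3 to 7 without single libraries. The second step (3) gave 1 with a pseudocount of 0.1, 0 with no filter, 1 with median-ratio scaling, 0 with quantile normalization, 1 with the fold rule, 6 without both shScram preadipocyte libraries and 0 to 6 without single libraries. In shFto, the first step (1) gave 2 with median-ratio scaling, quantile normalization or the GC correction, 5 with only its libraries, 6 without both shScram preadipocyte libraries and 1 to 6 without single libraries. The second step (1) gave 0 with no filter or quantile normalization, 2 with the GC correction, 6 with only its libraries, 6 without both shScram preadipocyte libraries and 0 to 6 without single libraries. The test of this step between the lines (0) gave 2 with only its libraries, 2 without both shScram preadipocyte libraries and 0 to 2 without single libraries. The change in the knockdown difference to the MCE stage (2) gave 1 with only its libraries, 4 with the fold rule and 1 to 7 without single libraries. The share of all genes called moved with the settings too. For the knockdown it ran from 0 to 62.8% in preadipocytes, 3.49 to 41.0% in MCE and 5.08 to 45.7% after differentiation. For the first and second step it ran from 3.16 to 64.7% and 5.08 to 52.0% in shScram and from 6.24 to 51.1% and 5.66 to 54.4% in shFto. It ran from 0.783 to 17.2% for the second step between the lines and from 1.02 to 52.5% for the change in the knockdown difference. The cause of these shifts was not tested.

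Signs changed for values not called with all 12 libraries, of which 1 was called with the other sign (Rxra in preadipocytes, -0.33 without replicate 1 of shScram). Under the GC correction, with or without the block, the knockdown difference in preadipocytes was 0.01 for Pparg, -0.26 for Rxra and -0.23 for Ppargc1b, and its change to the MCE stage was 0.10 for Ppargc1b. Under quantile normalization Ppargc1b gave 0.02 for the knockdown at the MCE stage, 0.14 for the first step in shScram (0.05 with median-ratio scaling) and -0.47 for the second step in shFto. The second step of Ppard in shScram was -0.16 with median-ratio scaling and -0.04 with quantile normalization, and that step between the lines was 0.01 and 0.06 for Nr1h2. Without single libraries the preadipocyte difference ran from -0.10 to 0.07 for Pparg and from -0.33 to 0.89 for Rxra. The knockdown at the MCE stage ran from -0.29 to 0.19 for Ppargc1b, the first step in shScram from -0.22 to 2.18 for Nr1h2 and from -0.34 to 0.23 for Ppargc1b, and the second step from -0.05 to 0.22 for Ppard in shScram and from -0.08 to 0.28 for Ppargc1b in shFto. That step between the lines ran from -0.19 to 0.05 for Pparg, from -0.06 to 0.49 for Nr1h3 and from -0.17 to 0.06 for Nr1h2.

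The lines share replicate numbers. Deviations of same-numbered libraries from their group means correlated at -0.29 to 0.172 over the 15 pairs of groups, and no label ties the numbers, so they were not taken as a pairing. With the replicate block the number of members changed by the knockdown was 3 in preadipocytes, 3 in MCE and 3 after differentiation, and over the steps 5 and 2 in shScram and 1 and 1 in shFto. With the GC correction and the block these were 2, 4, 5, 4, 3, 2 and 2. Depth behind each TPM is unknown, and 2 libraries per group limit every error given.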
